A study of Mus musculus with 6 samples.

Results

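Desmosomes are spot-like junctions that anchor the keratin filaments of neighbouring epithelial cells to each other. The genes described here are 7 that encode desmosome proteins (Dsg2, Dsc2, Dsp, Jup, Pkp1, Pkp2 and Pkp3) and 3 that encode catenins (Ctnna1, Ctnnb1 and Ctnnd1), chosen by symbol. Of the 41214 genes in the table, these 10 were each found as 1 row. They were measured in cultured cells from mouse mammary tumor explants, grown with insulin and G418. NMuMG, a mammary epithelial line, was the origin of the cells, and every library, control or not, was labelled Neu-NT, the constitutively active ErbB2 receptor. The control group carried a control hairpin (genotype Neu-NT shCON, 3 libraries), and the other group carried a hairpin against CdGAP (genotype Neu-NT shCdGAP, 3 libraries). CdGAP is the GTPase-activating protein encoded by Arhgap31, and the study asked how it acts on transcription of E-cadherin. The cell type label of all 6 samples reads shCTL, so the genotype label and the title tell the groups apart. The labels give neither the number of explants or clones behind each population nor the sequence of the hairpins. Nor is it stated that the 3 libraries of each genotype represent different cultures. The p-values below therefore reflect only how far these libraries scatter, which may be technical.

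In a desmosome, 2 kinds of cadherin, desmogleins (Dsg) and desmocollins (Dsc), span the membrane and bind their counterparts on the next cell. Inside the cell, plakoglobin (Jup) and the plakophilins (Pkp) bind the cadherin tails, and desmoplakin (Dsp) links them to keratin. In the adherens junction the corresponding chain runs from a classical cadherin such as E-cadherin to beta-catenin (Ctnnb1), or plakoglobin in its place, then to alpha-catenin (Ctnna1) and actin. The p120 catenin (Ctnnd1) binds the cadherin near the membrane and limits its removal from the surface. Beta-catenin also acts in the nucleus with TCF factors as the effector of Wnt signaling.

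The promoters of Jup, Ctnnb1 and Dsp are shown because Jup and Ctnnb1, which encode closely related proteins, had nearly parallel levels over the libraries, whereas Dsp followed a different course. This choice was made after the values were seen, and a link of the motifs to the levels was not tested. Each run is the 250 bases before the RefSeq start, 5′ to 3′ on the gene's strand, in build GRCm38.p6. The capitals mark GC boxes (GGGCGG or, on the other strand, CCGCCC) and CCAAT boxes (CCAAT or ATTGG), and these motifs do not overlap each other here.
Jup, chr11:100397791-100398040, minus strand: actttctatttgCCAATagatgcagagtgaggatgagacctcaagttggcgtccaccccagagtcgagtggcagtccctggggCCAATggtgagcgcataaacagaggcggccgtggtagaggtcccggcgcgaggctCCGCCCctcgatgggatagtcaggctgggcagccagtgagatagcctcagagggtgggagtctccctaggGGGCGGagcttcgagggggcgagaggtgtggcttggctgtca
Ctnnb1, chr9:120933150-120933399, plus strand: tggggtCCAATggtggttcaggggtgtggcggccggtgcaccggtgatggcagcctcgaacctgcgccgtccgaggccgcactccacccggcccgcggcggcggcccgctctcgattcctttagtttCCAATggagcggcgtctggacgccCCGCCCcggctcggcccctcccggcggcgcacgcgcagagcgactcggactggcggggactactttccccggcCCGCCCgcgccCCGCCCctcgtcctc
Dsp, chr13:38151044-38151293, plus strand: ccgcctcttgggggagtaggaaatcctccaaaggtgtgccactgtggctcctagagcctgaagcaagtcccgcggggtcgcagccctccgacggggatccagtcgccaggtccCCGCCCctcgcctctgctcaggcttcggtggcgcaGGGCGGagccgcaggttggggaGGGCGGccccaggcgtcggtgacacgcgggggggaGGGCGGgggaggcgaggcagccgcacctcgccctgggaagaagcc
The Ctnnb1 window lies in an intron of a longer annotated Ctnnb1 transcript and touches no exon. The Jup window held 2 GC boxes and 2 CCAAT boxes, and the printed window of Ctnnb1 held 3 and 2. A further Ctnnb1 window, at another start and not printed, held 2 GC boxes and 0 CCAAT boxes. The Dsp window held 4 GC boxes and 0 CCAAT boxes. Both windows of Ctnnd1, which are not printed, held 0 GC boxes and 2 CCAAT boxes each. Ctnnd1 also ran nearly parallel to Jup and Ctnnb1 (Pearson's r 0.94 and 0.93 on log2(FPKM + 1)). So did Ctnna1 (0.96 and 0.95), for which no window was examined. Of 32851 promoter windows of this length in the table, 32.7% held a GC box and 33.8% a CCAAT box, on either strand. The windows printed are GC-rich, with 62.0%, 74.8% and 72.4% G or C against a median of 52.4% over all windows. RefSeq windows were examined for 4 of the 10 genes, namely Dsp, Jup, Ctnnb1 and Ctnnd1. Windows of the other genes, Dsg2 among them, were not examined, so the motif counts do not cover them. The 4 genes gave 6 windows in all, with a further start of Ctnnb1 and both starts of Ctnnd1. The E-box CACCTG or CAGGTG, the core sequence recognised by Zeb and Snail repressors, occurred in 0 of these 6 windows and in 17.2% of all windows. This says only that these letters are not in the windows.

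Across all genes, replicate 1 of shCdGAP was the library least like its group. Across tested genes its log2 levels had a Pearson's r of 0.948 and 0.938 to replicates 2 and 3, against 0.996 between those libraries. Genes are not independent replicates here. The libraries held 19176540 to 26824249 gene-assigned reads. Arhgap31, the target of the hairpin, stood at 0.149, 0.826 and 0.748 FPKM in shCdGAP and 1.19, 1.30 and 1.35 FPKM in shCON replicates 1, 2 and 3, so its direction matched the labels in all 6 libraries, although limma did not call it (log2 fold change -0.56, adjusted p = 0.0836). Replicate 1 of shCdGAP had the lowest Arhgap31 of all libraries. Fits that leave it out therefore also drop the strongest reduction of the target. FPKM are fragments per kilobase of gene, scaled for depth, a scale on which genes of different length can be compared. In the marker lists, the epithelial keratins were abundant in every library (summed level of 10 epithelial genes 3828 to 6400 FPKM in shCdGAP and 3586 to 5014 in shCON). The same list holds genes at or near 0: Cldn3 and Cldn7 had no reads in any library, and Epcam had none in shCdGAP against 29 to 32 reads in shCON. The 8 fibroblast genes summed to 0.598 to 1.10 FPKM in shCdGAP and 0.808 to 0.947 in shCON, with Thy1 and Lum at 0 throughout. The 6 endothelial genes summed to 0 to 0.0300 and 0.271 to 0.304 FPKM, with Emcn at 0 throughout, and the 5 adipocyte genes to 0.697 to 1.49 and 3.88 to 5.24, with Plin1 at 0. The 7 leukocyte genes summed to 3.30 to 9.86 FPKM in shCdGAP and 13.2 to 17.9 in shCON, mostly from Cd68, while the defining gene Ptprc was at most 0.0197 FPKM. The 8 myoepithelial genes summed to 4.75 to 11.9 and 6.20 to 9.20 FPKM, with Acta2 at 0 throughout, and the 8 keratinocyte genes to 3.70 to 4.07 and 6.62 to 8.23, with Krt1, Flg and Dsg1a at 0. Among tested genes of these lists, Krt7, Esrp2, Cnn1 and Itgam were called higher, and Epcam, Krt5, Cd68, Fabp4, Cidec and Ivl lower (limma). Of these, Epcam and Krt5 passed the filter on low genes through shCON alone, and Cnn1 and Itgam through shCdGAP alone. For such genes the filter fixed the direction of any call. The part of other cell types in the results was not tested.

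Of the 10 genes, 9 had reads and all 9 passed the filter on low genes. Dsg2 and Pkp1 rose in shCdGAP, none fell, and 7 did not pass (limma on log2(FPKM + 1), adjusted p under 0.05 over all genes). At an unadjusted p under 0.05 Dsp joined them and the count of lower genes was again 0. The share of all tested genes at that looser threshold is not given here, so this count cannot be read as particular to these genes. The authors' deposited table also had Dsg2 and Pkp1 past 0.05 and no other of the 10, beside 23.8% of the 16970 genes it tested (DESeq2). Of the 13483 tested genes, 21.0% were called, 9.92% as higher and 11.1% as lower, so 2 calls among 9 is a share close to that of all genes. The median log2 fold change of the 9 genes was 0.32, beside -0.010 for all tested genes. For 7 of the 9 the libraries of the groups were fully separated, each with shCdGAP above shCON (Dsg2, Pkp1, Dsp, Jup, Ctnna1, Ctnnb1 and Ctnnd1), beside 21.8% of all tested genes in that direction and 22.3% in the other. The mean was higher in shCdGAP for 8 of the 9, beside 51.0% of all tested genes. In whole-cell RNA of a culture, fewer cells with a transcript and less of it per cell cannot be told apart, and that holds for each value below. Fold changes on the log2(FPKM + 1) scale understate changes of low genes, so ratios of mean FPKM are given as well.

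**Figure D1:**
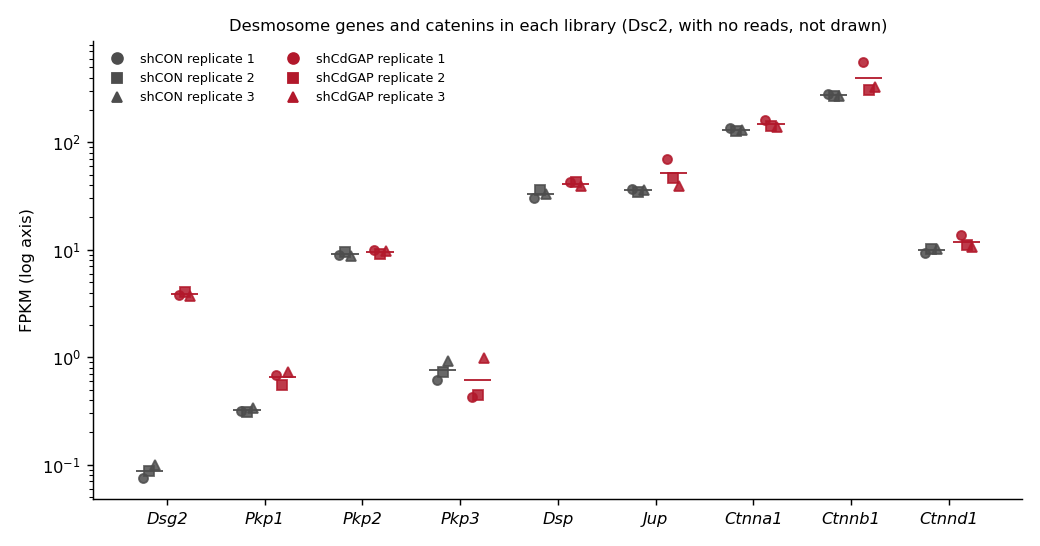
Level of 9 of the genes in each library, in FPKM on a log axis; grey points are shCON and red points shCdGAP, the marker shape gives the replicate number and the horizontal line the mean of 3 libraries. Dsg2 moves from about the lowest level of the set to above Pkp1 and Pkp3, while Ctnnb1 is the highest gene in both groups; Dsc2 had no reads.

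Dsg2, the desmoglein found in nearly all epithelia, changed most. Replicates 1, 2 and 3 of shCdGAP held 716, 735 and 757 reads of it, or 3.79, 4.05 and 3.69 FPKM, while those of shCON held 12, 20 and 22 reads, or 0.0751, 0.0880 and 0.0995 FPKM. All shCdGAP libraries were high and close together, and no control library came near them. The means were 3.84 ± 0.188 and 0.0875 ± 0.0122 FPKM (SD, n = 3), so the shCdGAP mean was 43.9 times the control mean. On the log2(FPKM + 1) scale the change was 2.15 (SE 0.08, adjusted p = 7.35e-05, limma), and 4.39 when 0.1 in place of 1 FPKM was added. In the authors' deposited table it was 5.27 (SE 0.24, adjusted p = 1.38e-104, DESeq2). The call held without any single library, and replicate 1 of shCdGAP, at 0.979 times the mean of replicates 2 and 3, did not stand apart for this gene. Even so, Dsg2 remained a low transcript beside its partners. Its mean over all libraries was at percentile 24.1 of the tested genes. In shCdGAP there were 10.8 ± 0.343 FPKM of Dsp and 13.4 ± 4.24 of Jup for each FPKM of Dsg2, and in shCON 379.6 ± 40.7 and 416 ± 68.7 (SD, n = 3). These ratios were added after the values were seen.

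The desmocollins were not detectable at this depth. Dsc2, the usual partner of Dsg2 in simple epithelia, had 0 reads in all 6 libraries, where a count of 0 allows up to 3 reads, or 0.112 to 0.156 CPM (reads scaled to a common library total), in each. This limit covers counting error only. Dsc1 and Dsc3 are the remaining desmocollin genes, and the 3 desmocollins together had 5 reads over all libraries. The desmogleins other than Dsg2, which are Dsg1a, Dsg1b, Dsg1c, Dsg3 and Dsg4, together had 7 reads. In shCdGAP these few reads stood beside 716 to 757 of Dsg2. In shCON, replicates 1, 2 and 3 had 2, 0 and 1 desmocollin reads and 2, 2 and 1 of the other desmogleins, beside 12, 20 and 22 of Dsg2, so Dsg2 had the most reads of the desmosomal cadherins in every library but led by less in the control. No exon base of Dsc2 is shared with another gene in GENCODE M21. Of the exon bases of Dsg2, 4.0% are shared with Gm16090 on the other strand. With the strand handling unknown, reads over those bases cannot be told apart.

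These cadherin genes lie side by side on chromosome 18, and the values of the neighbours were read by position. Dsg2 spans 20558074 to 20604521 on the plus strand of mm10, and Dsc2 20030633 to 20059554 on the minus strand. Of the 13 protein-coding genes that start within 500 kb of the Dsg2 start, itself included, 7 on the side of the desmocollins had at most 2 reads in any library. On the other side, 107.2 kb away, Ttr, which encodes the thyroid hormone carrier transthyretin, rose as well. It had 322, 128 and 30 reads in shCdGAP replicates 1, 2 and 3 and 1, 1 and 2 in shCON, or 11.5, 4.78 and 0.991 FPKM against 0.0425, 0.0298 and 0.0613. The libraries of shCdGAP differed widely among themselves, and all lay above shCON (log2 fold change 2.33, SE 0.63, adjusted p = 0.0468, limma). Ttr passed the filter on low genes through its shCdGAP libraries alone, so a call could only be higher. The call on Ttr was lost without shCdGAP replicate 2 (adjusted p = 0.132) or shCON replicate 1, 2 or 3 (0.136, 0.141 and 0.136, limma), and with the replicate number as a block (0.0573). B4galt6 and Trappc8, farther along, had log2 fold changes of 0.36 and 0.10 and did not pass (adjusted p = 0.207 and 0.461, limma). Rnf138, a ubiquitin ligase 443.3 kb away, rose by 0.43 (SE 0.10, adjusted p = 0.0309, limma). That call held without shCdGAP replicate 1 (0.0131) but not without any other single library (adjusted p 0.0719 to 0.138), nor with the block (0.0601). Rnf125 had no reads. The median gene of chromosome 18 was 0.003 above that of all genes on the log2 scale, over 230 genes whose mean reached 3 FPKM.

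**Figure D2:**
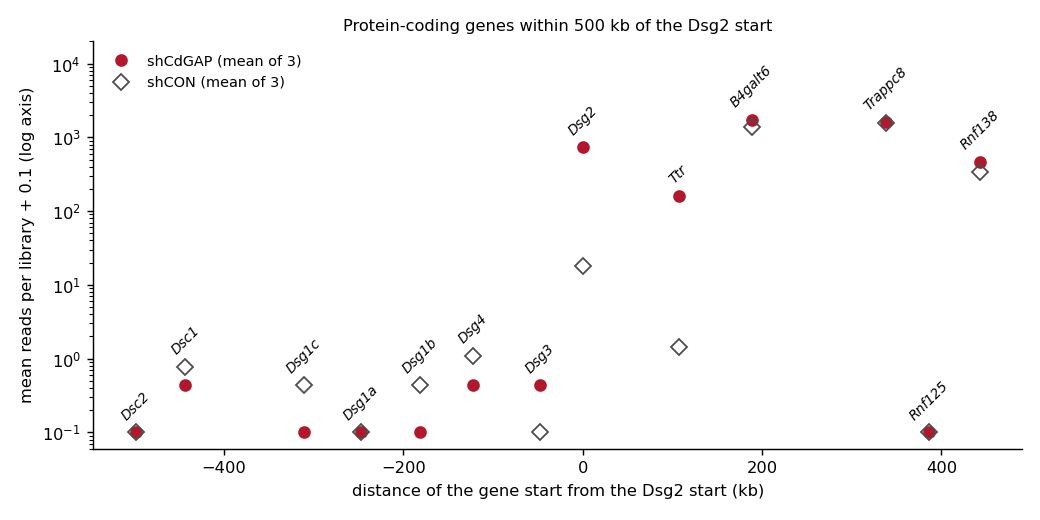
Mean reads per library, plus 0.1, of the 13 protein-coding genes that start within 500 kb of the Dsg2 start, on a log axis, against the distance of each start from that of Dsg2 in kb; filled red circles are shCdGAP and open grey diamonds shCON, each the mean of 3 libraries. The desmocollins and the other desmogleins lie at or below about 1 read in both groups, whereas Dsg2 and Ttr are far apart between the groups.

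The plakophilins, armadillo proteins that cluster the desmosomal cadherins and recruit desmoplakin, were dominated by Pkp2. Pkp2 stood at 9.99, 9.05 and 9.80 FPKM in shCdGAP and 9.03, 9.51 and 8.70 in shCON replicates 1, 2 and 3, and the groups overlapped. Its log2 fold change was 0.07, with a 95% interval of -0.15 to 0.30 (adjusted p = 0.618, limma). It made up 85.2% to 90.1% of the summed plakophilin FPKM in shCdGAP and 87.4% to 90.6% in shCON. Pkp1, the plakophilin typical of stratified epithelia, rose from a low level. Its 78, 61 and 91 reads in shCdGAP came to 0.679, 0.553 and 0.729 FPKM, and its 31, 43 and 45 reads in shCON to 0.319, 0.311 and 0.335 FPKM. Every shCdGAP library was higher than every control library, by a ratio of means of 2.03 (0.654 ± 0.0907 against 0.322 ± 0.0120 FPKM, SD, n = 3). On the log2(FPKM + 1) scale Pkp1 rose by 0.32 (SE 0.06, adjusted p = 0.0176, limma), and the log2 fold change was 0.99 in the authors' deposited table (adjusted p = 0.00110, DESeq2). The call on Pkp1 depended on each control library, with an adjusted p in limma of 0.0534, 0.0857 and 0.0737 when shCON replicate 1, 2 or 3 was left out. It was also lost with no filter on low genes (0.0542). Pkp3, expressed in most epithelia, stood at 0.423, 0.441 and 0.980 FPKM in shCdGAP and 0.616, 0.724 and 0.920 in shCON. Its groups overlapped and its shCdGAP libraries spread the most of the 9 genes, with a coefficient of variation of 51.5% (log2 fold change -0.13, 95% interval -0.50 to 0.23, adjusted p = 0.584, limma). In shCdGAP the ranges of Pkp1 and Pkp3 overlapped, whereas in shCON Pkp3 was above Pkp1. The summed plakophilin level was 10.9 ± 0.756 FPKM in shCdGAP and 10.2 ± 0.337 in shCON (SD, n = 3) and did not differ beyond the spread (exact 2-sided permutation test p = 0.20, 0.333 adjusted over 5 quantities, where 3 against 3 libraries cannot give less than 0.10).

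Dsp, which ties the plaque to keratin filaments, stood at 42.2, 42.6 and 39.1 FPKM in shCdGAP and 30.0, 35.8 and 33.1 in shCON. The groups did not overlap, and the difference between their means, 41.3 ± 1.92 against 33.0 ± 2.88 FPKM (SD, n = 3), was a ratio of 1.25. It missed the threshold (log2 fold change 0.32, SE 0.10, 95% interval 0.07 to 0.57 unadjusted, adjusted p = 0.0783, limma). It passed without shCdGAP replicate 1 (adjusted p = 0.0464, log2 fold change 0.30) and without both libraries numbered 1 (0.0395 and 0.24, limma). In the first of these fits 39.9% of all genes were called, 19.9% as higher, and in the second 48.3% and 24.3%. In the authors' deposited table Dsp narrowly missed 0.05 as well (log2 fold change 0.32, adjusted p = 0.0508, DESeq2). The median gene of chromosome 13, which holds Dsp, was itself 0.28 above that of all genes on the log2 scale (340 genes). The part of this shift in the value of Dsp was not tested. Of Dsp's exon bases, 5.2% are shared with the antisense gene Gm10129 in GENCODE M21, and with the strand handling unknown the reads of the pair cannot be told apart.

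Jup encodes plakoglobin, the catenin shared by desmosomes and adherens junctions. It stood at 69.3, 46.2 and 39.0 FPKM in shCdGAP and 37.1, 34.5 and 36.0 in shCON. The groups did not overlap, but 1 library set most of the difference: replicate 1 of shCdGAP was at 1.63 times the mean of replicates 2 and 3, which were themselves at 1.19 times the control mean. The means were 51.5 ± 15.9 and 35.9 ± 1.29 FPKM (SD, n = 3), and the change missed the threshold (log2 fold change 0.47, SE 0.21, 95% interval -0.05 to 0.99, adjusted p = 0.178, limma). Leaving that library out gave a log2 fold change of 0.24 (adjusted p = 0.0884, limma).

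Ctnnb1, encoding beta-catenin, was the most abundant of the 10 genes in every library and was at percentile 99.1 of the tested genes. It stood at 555.6, 306.8 and 323.9 FPKM in shCdGAP and 283, 269 and 269.6 in shCON. Here too replicate 1 of shCdGAP was high, at 1.76 times the mean of replicates 2 and 3, and these 2 libraries were at 1.15 times the control mean. On average there were 395 ± 139 and 274 ± 7.98 FPKM (SD, n = 3), with a log2 fold change of 0.47 (SE 0.24, 95% interval -0.10 to 1.05, adjusted p = 0.215, limma). Leaving out shCdGAP replicate 1 gave 0.20 (adjusted p = 0.0855), and without both libraries numbered 1 it was 0.23 and passed (adjusted p = 0.0400, limma). Of the exon bases of Ctnnb1, 15.1% are shared with other annotated genes, nearly all of them with Ulk4 on the other strand.

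The other catenins differed less between the groups. Ctnna1 encodes alpha-catenin, the link to actin, and stood at 161.6, 141 and 138 FPKM in shCdGAP and 137, 126 and 129 in shCON. The lowest shCdGAP library was barely above the highest control library, and the change did not pass (log2 fold change 0.16, 95% interval -0.09 to 0.41, adjusted p = 0.320, limma). Ctnnd1 encodes p120 catenin and stood at 13.8, 11.2 and 10.7 FPKM in shCdGAP and 9.38, 10.3 and 10.3 in shCON, with no overlap and no call (log2 fold change 0.22, 95% interval -0.07 to 0.52, adjusted p = 0.248, limma). Replicate 1 of shCdGAP was again the highest library for both, at 1.16 and 1.26 times the mean of the other two. The level of Ctnnd1 is less certain than that of the others, because 61.2% of its exon bases are also exons of Gm28635 on the same strand, and Gm28635 is listed with 0 reads. How reads over the shared exons were assigned was not tested.

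**Figure D3:**
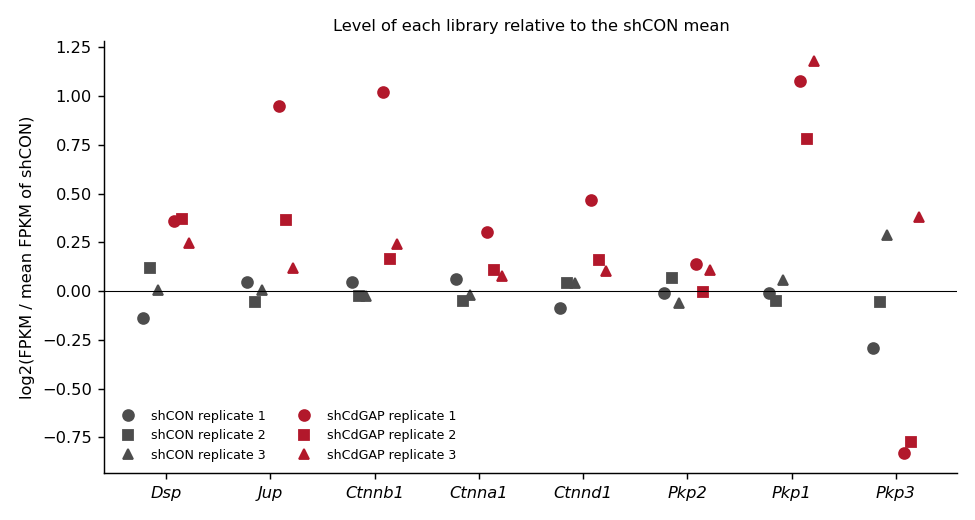
Level of each library relative to the mean of shCON, as log2 of the ratio of FPKM, for 8 genes; grey points are shCON, red points shCdGAP, and the marker shape gives the replicate number. Replicate 1 of shCdGAP lies about 1 log2 unit above the control mean for Jup and Ctnnb1, well above replicates 2 and 3, but not for Dsp or Pkp2.

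**Figure D4:**
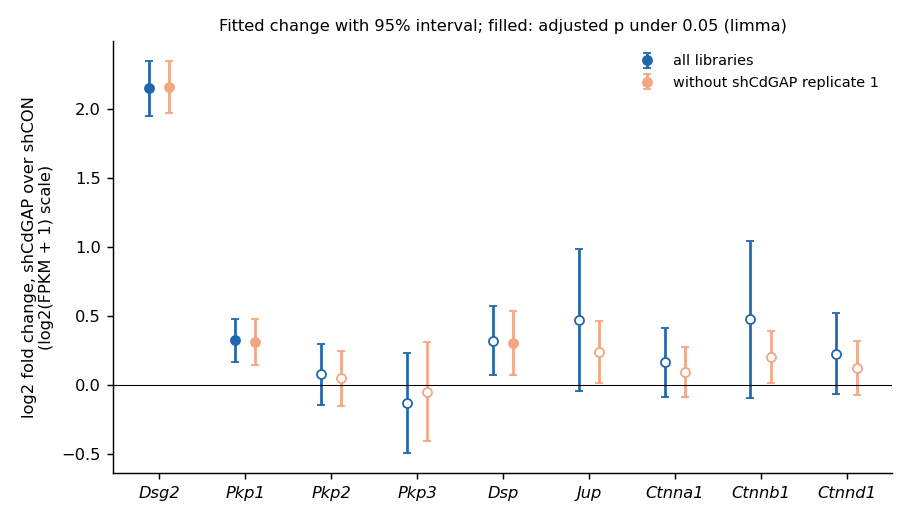
Fitted log2 fold change of shCdGAP over shCON with its 95% interval, on the log2(FPKM + 1) scale, for 9 genes, with all 6 libraries (blue) and without shCdGAP replicate 1 (orange); filled points had an adjusted p under 0.05. Dsg2 and Pkp1 are filled in both fits, Dsp only without that library, and the intervals of Jup and Ctnnb1 shrink toward lower values.

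By level, the order in shCdGAP was Ctnnb1, Ctnna1, Jup, Dsp, Ctnnd1, Pkp2, Dsg2, Pkp1, Pkp3 and Dsc2. The ranges overlapped only for the neighbouring pairs Jup and Dsp, and Pkp1 and Pkp3. In shCON the order was the same down to Pkp2, followed by Pkp3, Pkp1, Dsg2 and Dsc2, and the overlapping pairs were Jup with Dsp and Ctnnd1 with Pkp2. The ratio of Jup to Ctnnb1 was 0.125, 0.150 and 0.120 in shCdGAP and 0.131, 0.128 and 0.134 in shCON. The means, 0.132 ± 0.0162 and 0.131 ± 0.00277 (SD, n = 3), did not differ beyond the spread (exact 2-sided permutation p = 1.0). A test of 3 against 3 libraries cannot show that the proportion was the same, and the ratio spread more in shCdGAP. In shCdGAP replicate 1, where both genes were high, the ratio lay between those of replicates 2 and 3. The ratio of Ctnna1 to Ctnnb1 was 0.291, 0.459 and 0.427 in shCdGAP and 0.483, 0.469 and 0.479 in shCON. Each shCdGAP library was lower, by 0.31 on the log2 scale on average, with the lowest value in replicate 1 (exact 2-sided permutation p = 0.10, the smallest possible, and 0.333 adjusted over the 5 quantities). Leaving out that library reduced the difference to -0.11. Ctnnd1 over Ctnnb1 and Dsp over Jup had differences of -0.23 and -0.15 on the log2 scale (exact 2-sided permutation p = 0.20 and 0.70), and -0.069 and 0.069 without shCdGAP replicate 1. The planned ratio of Dsg2 to Dsc2 could not be formed, since Dsc2 had no reads.

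The catenins can be set against the classical cadherins that they bind. Cdh1, encoding E-cadherin, had 184, 152 and 167 FPKM in shCdGAP and 37.9, 56.9 and 57.2 in shCON, and rose in the fit (log2 fold change 1.73, adjusted p = 0.00220, limma). The sum of Cdh1 and Cdh2 per FPKM of Ctnnb1 was 0.378, 0.565 and 0.573 in shCdGAP and 0.182, 0.261 and 0.265 in shCON, higher in every shCdGAP library. The mean ratio was 2.14 times that of shCON (exact 2-sided permutation p = 0.10, the smallest possible). This quantity was added after the values were seen. Transcripts of Ctnnb1 outnumbered those of both cadherins together, per length, in all 6 libraries.

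Over the 6 libraries, Jup, Ctnna1, Ctnnb1 and Ctnnd1 correlated with each other at 0.85 to 0.96 (Pearson's r on log2(FPKM + 1)), and Dsg2 with Pkp1 at 0.95 and with Dsp at 0.90. These are descriptions, since the libraries share the group difference and, for the catenins, the high values of shCdGAP replicate 1. By the same measure over all tested genes whose mean reached 5 FPKM, those most like Dsg2 were Loxl2, Tgm2 and Lbp (r = 0.9995, 0.9985 and 0.9981), which encode a lysyl oxidase, a transglutaminase and the lipopolysaccharide-binding protein. Those most like Ctnnb1 were Atp6v1b2, Coro1b and Nsdhl (0.9998, 0.9984 and 0.9970), all highest in shCdGAP replicate 1. Those most like Jup were Gm24187, Wbp5 and Sike1 (0.9984, 0.9979 and 0.9974). For Dsp they were Qsox2, Nr3c1 and Padi2 (0.9843 to 0.9927), for Pkp1 Ndufv1, Apex1 and Mbtps1 (0.9931 to 0.9964), for Ctnna1 Wdr6, Foxo4 and Rdh14 (0.9969 to 0.9988) and for Ctnnd1 Tmem205, mt-Rnr2 and Pklr (0.9935 to 0.9993).

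Other desmosome genes and genes of the cornified envelope formed a list of 15. Of these, 7 could be tested, of which 1 was lower and 6 did not pass, beside 21.0% of all tested genes called, with a list median of -0.25 on the log2 scale. Ivl, encoding involucrin of the cornified envelope, fell from 2.75 ± 0.295 to 0.596 ± 0.0878 FPKM (SD, n = 3; log2 fold change -1.23, adjusted p = 8.25e-04, limma), and the call held without any single library. Perp, a membrane protein of desmosomes, was at 52.7 ± 9.17 and 62.5 ± 5.35 FPKM in shCdGAP and shCON, and Pkp4 at 18.8 ± 6.45 and 22.1 ± 2.53. The plakin periplakin, Ppl, was at 20.8, 56.9 and 54.6 FPKM in shCdGAP and 21.0, 31.6 and 31.2 in shCON, and here the libraries numbered 1 were the lowest of each group (adjusted p = 0.413, limma). Perp, Pkp4 and Ppl were named after their values were seen. With shCdGAP replicate 1 left out this list had 1 higher and 3 lower, beside 39.9% of all genes called in that fit, and a median of 0.018, so the sign of the median depended on that library.

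Among adherens junction partners, 6 of 17 tested genes were higher, 1 was lower and 10 did not pass (list median 0.26), beside 21.0% of all tested genes called. With library size scaling, and again with no filter on low genes, 3 were higher. Besides Cdh1, the N-cadherin gene Cdh2 rose by 0.64 on the log2 scale and Mllt4, which encodes the actin-binding protein afadin, by 0.43 (adjusted p = 0.0253 and 0.0259, limma). Ctnnal1, encoding the alpha-catenin relative alpha-catulin, fell from 12.7 ± 2.16 to 4.74 ± 0.248 FPKM (SD, n = 3; log2 fold change -1.24, adjusted p = 0.00220, limma). Vcl, Pvrl2 and Ajuba also rose and were named after their values were seen. The neural catenins Ctnna2 and Ctnnd2 had means under 0.02 FPKM in both groups and were not tested. The calls on Cdh1 and Ctnnal1 held without any single library. Those on Cdh2, Mllt4, Vcl, Pvrl2 and Ajuba were each lost without shCdGAP replicate 2, shCON replicate 2 or shCON replicate 3, with adjusted p of 0.0876 to 0.154 in those fits (limma). Without shCON replicate 1, Cdh2, Vcl and Ajuba were also lost (0.0846, 0.106 and 0.128), and without shCdGAP replicate 3, Mllt4, Vcl, Pvrl2 and Ajuba (0.0537, 0.0983, 0.0665 and 0.0991). With the replicate number as a block Vcl was lost (0.0518). With shCdGAP replicate 1 left out, calls in the list came to 9 higher and 2 lower, beside 39.9% of all tested genes called in that fit.

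Keratins, the filaments that desmoplakin holds, and the linkers Plec and Dst had 1 of 10 tested genes higher, 3 lower and 6 not passing (median 0.14). The share called over all tested genes was 21.0%. Among the 3 lower genes were the keratins Krt5 and Krt20 and the linker Dst. Krt8 and Krt18, the keratins of simple epithelia, were at 2487 ± 817 and 2457 ± 571 FPKM in shCdGAP and 1997 ± 438 and 2169 ± 330 in shCON (SD, n = 3) and did not pass (adjusted p = 0.574 and 0.641, limma). These were named after their values were seen. The basal keratin Krt5 had 0, 1 and 1 reads in shCdGAP and 20, 38 and 42 in shCON, and fell (adjusted p = 0.00188, limma). It passed the filter on low genes through its shCON libraries alone, so a call could only be lower. Krt20 fell by 1.02 on the log2 scale and Dst, encoding the plakin dystonin, by 0.60, while Krt7 rose by 0.49 (adjusted p = 0.0116, 0.0239 and 0.0353, limma). The call on Krt5 held without any single library. Krt20 was lost without shCdGAP replicate 2 or shCON replicate 1 or 2 (adjusted p = 0.0524, 0.0535 and 0.0580), and Dst and Krt7 without any single library other than shCdGAP replicate 1 (0.0661 to 0.128, limma). With the block Krt7 was lost (0.0551). With shCdGAP replicate 1 left out, calls among them came to 3 higher and 3 lower, beside 39.9% of all tested genes called in that fit.

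The genes that control beta-catenin turnover had 1 of 16 tested members lower and 15 not passing (median -0.0021). Axin2, a scaffold of the destruction complex that is also induced by Wnt signaling, fell from 0.920 ± 0.213 to 0.269 ± 0.0491 FPKM (SD, n = 3; log2 fold change -0.59, adjusted p = 0.00950, limma). Among TCF factors, their co-factors and target genes, 3 of 12 were higher, 1 was lower and 8 did not pass (median 0.14). Both lists stand beside 21.0% of all tested genes called. Tcf7 went down from 16.4 ± 5.11 FPKM in shCON to 5.49 ± 1.32 (log2 fold change -1.41, adjusted p = 0.0110), whereas Tcf7l2 rose from 1.41 ± 0.116 to 2.25 ± 0.275 (0.43, adjusted p = 0.0361, limma). The co-activator gene Bcl9l rose from 13.5 ± 0.962 to 27.0 ± 3.19 FPKM and its relative Bcl9 from 3.73 ± 0.266 to 5.52 ± 0.413 (log2 fold changes 0.94 and 0.46, adjusted p = 0.00383 and 0.0258, limma). The calls on Axin2, Tcf7 and Bcl9l held without any single library. Those on Bcl9 and Tcf7l2 were lost without shCdGAP replicate 2 or shCON replicate 1, 2 or 3 (adjusted p 0.0501 to 0.155, limma), and that on Tcf7l2 also with the block (0.0736). Without shCdGAP replicate 1, 4 turnover genes were higher and 2 lower, and 4 and 3 of the TCF list, with medians of 0.095 and -0.019, so both medians turned sign. In that fit 39.9% of all tested genes were called.

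Regulators of desmosomes had 2 of 14 tested genes higher, 1 lower and 11 not passing (median 0.050). With library size scaling, and also with no filter, 1 was higher. Grhl2, an epithelial transcription factor known to activate junction genes, had 0, 2 and 1 reads in shCdGAP and 59, 50 and 60 in shCON, and fell (adjusted p = 0.00464, limma). It passed the filter on low genes through its shCON libraries alone, so a call could only be lower. Every shCdGAP library was lower than every control library for Grhl2 and higher for Dsg2 and Cdh1. Such full separation occurred in 22.3% of all tested genes as lower and 21.8% as higher. A link of Grhl2 to Dsg2 or Cdh1 was not tested. Atp2c1, the Golgi calcium pump mutated in Hailey-Hailey disease, in which keratinocytes come apart, rose from 7.17 ± 0.187 to 10.7 ± 0.331 FPKM (SD, n = 3; log2 fold change 0.52, adjusted p = 0.00975, limma). Rnd3 rose by 0.41 on the log2 scale ( adjusted p = 0.0384, limma). The call on Grhl2 held without any single library, that on Atp2c1 was lost when shCON replicate 2 or 3 was dropped (adjusted p = 0.0671 and 0.0599), and that on Rnd3 without any single library other than shCdGAP replicate 1 (0.0719 to 0.153) and with the block (0.0542, limma). Without shCdGAP replicate 1 this list had 3 higher and 2 lower, beside 39.9% of all tested genes called in that fit. Over the 6 lists together, 20 of 76 tested genes were called (26.3%), beside 21.0% of all tested genes.

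**Figure D5:**
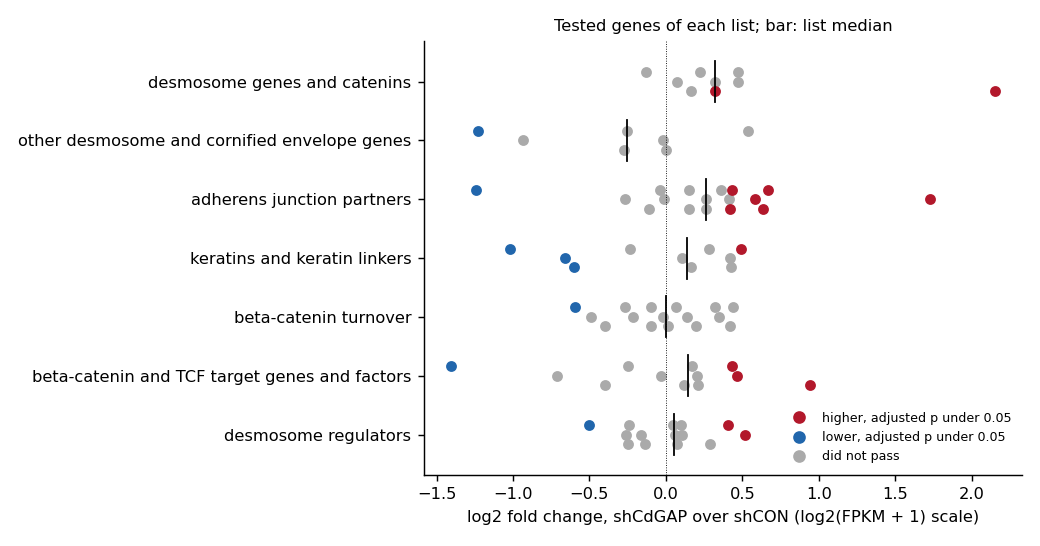
Log2 fold change of shCdGAP over shCON on the log2(FPKM + 1) scale for each tested gene, 1 row per list with the desmosome genes and catenins at the top; red and blue points had an adjusted p under 0.05 as higher or lower, grey points did not pass, and the black bar is the list median. Dsg2, at 2.15, lies to the right of every gene drawn, and the medians of the lists lie between -0.25 and 0.32.

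The remaining genes lie apart from each other in the genome. On mm10, Dsp spans 38151294 to 38198577 of chromosome 13 (plus strand), Jup 100368958 to 100397763 of chromosome 11 (minus), Pkp1 135871395 to 135919207 of chromosome 1 (minus), Pkp2 16213318 to 16272712 of chromosome 16 (plus) and Pkp3 141078218 to 141090510 of chromosome 7 (plus). Ctnna1 spans 35118859 to 35254779 of chromosome 18 (plus), Ctnnb1 120929216 to 120960507 of chromosome 9 (plus) and Ctnnd1 84600071 to 84650765 of chromosome 2 (minus). The median gene of chromosome 16 was 0.27 below that of all genes on the log2 scale and that of chromosome 2 was 0.19 below, where Pkp2 and Ctnnd1 had 0.07 and 0.22. Chromosomes 1, 7, 9 and 11 had medians 0.096 below, 0.036 above, 0.077 above and 0.11 below. These medians are descriptions of the same libraries, and their part in the values of the 10 genes was not tested.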

How the data were processed

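Illumina RNA-seq of total RNA gave 6 libraries, per the labels. Trimmomatic, TopHat2 2.0.13, featureCounts and DESeq2, and the build mm10, are what the authors named, per the submitters' processing notes. Annotation release and strand handling: not given in the sources used here. The authors deposited FPKM values, already divided by size factors, for 41214 genes. Per the file headers the table also holds the authors' DESeq2 mean signal per gene, log2 fold change, test score, p-value and adjusted p-value. Whole reads were recovered from FPKM, the deposited mean signal and 1 fitted size factor per library, and 100% of values above 0 came out whole (tolerance 1e-06). Depth limits precision as the read counts show.

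A gene was tested if 3 or more libraries had 10 reads or more at the median depth and all libraries summed to 15 or more. A gene could thus pass through a single group. Fits with libraries left out kept the genes that had passed with all libraries, so they do not test the filter. The test was made with limma 3.58.1 in R 4.3.3 on log2(FPKM + 1), with the group as single term, trend and robust empirical Bayes, and Benjamini-Hochberg adjustment over 13483 genes at 0.05. The step was also run on simulated counts with the same dispersion in every gene and no outlying library. These data differ from that in shCdGAP replicate 1, so the simulation does not show how the test behaves here. Ratios used exact permutation tests. Alternatives were library size scaling, a pseudocount of 0.1, other filters, limma-voom, plain empirical Bayes, a replicate block, single libraries left out and, added after seeing the data, both libraries numbered 1 left out. Pairing by replicate number was checked on deviations from the group means, whose correlation within numbers 1, 2 and 3 was 0.43, 0.39 and 0.34. The crossed pair of shCdGAP 2 and shCON 3 reached 0.35, and that of shCdGAP 3 and shCON 2 reached 0.27. These values set number 1 apart but do not tell numbers 2 and 3 from each other. The pairs, which rest on the data and not the labels, were therefore used only in the replicate block, not in the main test. Positions came from GENCODE M21 (mm10) and promoters from RefSeq. Named genes are the 10 members, Arhgap31, Cdh1, up to 4 genes per list with the smallest p, and the 3 genes most correlated with a member (for Pkp2 and Pkp3 these are not reported here); others are marked. The members and lists were chosen with earlier results of these data known. Further software was matplotlib 3.10.9, pandas 2.3.3, numpy 2.4.6 and Python 3.11.15.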

Additional observations from a re-analysis of the deposited data

How the results depend on the processing

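Dsg2 was called in every alternative, with a log2 fold change of 2.12 to 5.41. The value was 4.39 with 0.1 FPKM added, 5.27 in the authors' DESeq2 fit and 5.41 with limma-voom on recovered reads. The settings with lower values add 1 FPKM. No member reversed direction. Of the 10 genes, 2 were called higher and 0 lower; 1 was higher with no filter and 1 among genes of at least 5 CPM, where Pkp1 and Pkp3 were not tested, and 4 without both libraries numbered 1. Without single libraries 1 to 3 were higher. All genes gave 1337 higher and 1501 lower, 1112 and 1705 with library size scaling, 922 lower among genes of at least 5 CPM, 3276 and 3230 without both libraries numbered 1, and 469 to 2680 higher and 768 to 2693 lower without single libraries. Over the pathway lists, 12 genes were higher and 8 lower. There were 7 higher with library size scaling, 6 higher with no filter, 4 lower among genes of at least 5 CPM, 13 lower in the authors' table, and 27 and 18 without both libraries numbered 1. Without single libraries 2 to 24 were higher and 6 to 15 lower. Of the differences of the junction ratios, 37 of 40 kept their direction under the alternatives. That count includes the replicate block, which cannot change these differences, and the addition of 0.1 FPKM, which could change them little. The 3 that turned all came from leaving out a single library. That of Jup over Ctnnb1, 0.004, ranged from -0.094 (without shCdGAP replicate 2) to 0.066 without single libraries, with -0.011 without shCON replicate 2, and that of Dsp over Jup, -0.151, from -0.29 to 0.069, turning without shCdGAP replicate 1. Without that library Ctnna1 over Ctnnb1 went from -0.311 to -0.109 and Ctnnd1 over Ctnnb1 from -0.23 to -0.069. With the replicate number as a block 2 members were higher and 0 lower, Dsg2 at adjusted p = 0.00355 and Pkp1 at 0.0414 (limma), and the block changed no member's call. The causes were not tested. At 12 to 45 reads per library, Dsg2 and Pkp1 in shCON are limited by depth.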
